A study of Homo sapiens with 8 samples.

Results

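HLA class I antigen presentation is described here through 9 genes, those of the 13842 in the table whose symbol is HLA-B, HLA-C, B2M, TAP1, TAP2, TAPBP, PSMB8, PSMB9 or PSMB10. All 9 were found. They were measured by RNA-seq in MCF10A, a normal breast epithelial line, and in DCIS.COM, a ductal carcinoma in situ line derived from it through a RAS-transformed intermediate. Each line carried either the empty lentiviral vector (pLOC-empty) or the vector expressing the lncRNA MALINC1 (pLOC-MALINC1). That makes 4 groups of 2 libraries each. Every group was stably transduced and selected with blasticidin, so the controls carry the vector too. MCF10A was grown with horse serum, EGF, hydrocortisone, insulin and cholera toxin and DCIS.COM with horse serum alone, so that line and medium cannot be told apart. The labels do not say that the 2 libraries of a group came from separate cultures, and p-values then measure only the spread between these libraries, which may be technical.

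Class I molecules show peptides from inside the cell to CD8 T cells, and they are made by almost every nucleated cell. The proteasome cuts proteins into peptides, and the inducible subunits PSMB8, PSMB9 and PSMB10 replace its constitutive catalytic subunits to form the immunoproteasome. TAP1 and TAP2 together pump the peptides into the endoplasmic reticulum, where tapasin (TAPBP) holds the transporter and an empty class I molecule together until a peptide is bound. HLA-B and HLA-C encode polymorphic heavy chains, and B2M encodes the invariant light chain that every class I molecule needs to reach the surface. Interferons raise the whole pathway through IRF1 and the transactivator NLRC5, and its loss is one known way in which tumor cells avoid T cells.

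On GRCh37 (hg19), 7 of the 9 genes lie in the major histocompatibility complex on chromosome 6. TAP2 (32789610 to 32806516), PSMB8 (32808494 to 32812456), TAP1 (32812986 to 32821593) and PSMB9 (32811913 to 32827628) form a cluster that spans 38019 bp, with PSMB9 alone on the plus strand. HLA-C (31236526 to 31239907), HLA-B (31321649 to 31334844) and TAPBP (33267471 to 33282061) lie on the minus strand. B2M is on chromosome 15 (45003556 to 45011049, plus strand) and PSMB10 on chromosome 16 (67968409 to 67970767, minus strand). Annotated exons of PSMB8-AS1, on the opposite strand, share 672 nt with those of TAP1 and 602 nt with those of PSMB8. Exons of PSMB9 share 174 nt with PSMB8-AS1 on the same strand and 139 nt with PSMB8 on the opposite strand. The setting of strand in the counting is not given in the sources used here, and reads of the genes and their antisense partners cannot then be told apart. Annotated readthrough genes also share 2023 nt with the exons of TAP2 and 640 nt with those of PSMB10. Exons of HLA-B share 1421 nt with the pseudogene DHFRP2 on the same strand and 671 nt with a pseudogene on the opposite strand, and those of TAPBP share 1397 nt with an antisense lncRNA.

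The promoters are shown with their matches to the letters searched for known control elements of the pathway. The 200 bases upstream of the start site are given for HLA-B and HLA-C, the heavy chain pair of which HLA-B alone was called between the lines with pLOC-empty, for B2M and TAP1, which fell with MALINC1 in DCIS.COM, and for TAPBP, which fell in both lines. They are RefSeq sequences of GRCh38.p14 that match GRCh37 at the coordinates given, 5′ to 3′ on the strand of the gene. Capitals mark matches, on either strand, to the core of the interferon-stimulated response element (GAAANNGAA), the NF-kB site (GGGANTNCC), the cyclic AMP response letters of the X2 box, bound by CREB1 and ATF1 (TGACG), and the Y box bound by NFYA, NFYB and NFYC (CCAAT).
HLA-B, chr6:31324957-31325156, minus strand: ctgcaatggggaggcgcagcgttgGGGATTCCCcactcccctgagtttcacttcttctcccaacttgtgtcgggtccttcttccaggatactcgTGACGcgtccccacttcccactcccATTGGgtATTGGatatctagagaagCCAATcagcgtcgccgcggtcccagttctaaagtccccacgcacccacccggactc
HLA-C, chr6:31239870-31240069, minus strand: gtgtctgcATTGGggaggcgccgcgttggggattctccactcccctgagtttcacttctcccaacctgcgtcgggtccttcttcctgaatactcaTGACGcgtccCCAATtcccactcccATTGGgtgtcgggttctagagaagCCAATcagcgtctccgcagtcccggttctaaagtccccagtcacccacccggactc
B2M, chr15:45003515-45003714, plus strand: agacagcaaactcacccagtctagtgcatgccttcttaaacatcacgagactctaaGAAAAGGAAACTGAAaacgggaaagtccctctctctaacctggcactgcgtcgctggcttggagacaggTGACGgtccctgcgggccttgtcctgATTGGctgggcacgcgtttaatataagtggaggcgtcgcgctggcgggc
TAP1, chr6:32821482-32821681, minus strand: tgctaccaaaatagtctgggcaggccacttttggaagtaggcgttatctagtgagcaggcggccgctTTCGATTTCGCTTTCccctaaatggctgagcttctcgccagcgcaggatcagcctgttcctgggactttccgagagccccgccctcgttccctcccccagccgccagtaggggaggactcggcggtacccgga
TAPBP, chr6:33281856-33282055, minus strand: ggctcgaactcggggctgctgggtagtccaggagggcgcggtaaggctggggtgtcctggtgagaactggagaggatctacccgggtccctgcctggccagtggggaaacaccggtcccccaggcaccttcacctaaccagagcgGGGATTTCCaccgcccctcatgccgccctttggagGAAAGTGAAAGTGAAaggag

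A match here is a run of letters and not a shown binding site. Forms of these elements that differ from the searched letters were not looked for, so no match does not mean that an element is absent. All 9 genes had a promoter window from 250 bases before to 50 bases after a start site, with 11 windows in all since TAP1 and PSMB8 each have 2. The response element core was found in 6 of the 11 windows, and in 8.11% of all 35116 windows. The 6 windows belong to 6 members (B2M, TAP1, TAP2, TAPBP, PSMB8 and PSMB10), and that of PSMB8 is its second. The 4 members called lower with MALINC1 in DCIS.COM (B2M, TAP1, TAPBP and PSMB8, where 16.7% of all genes were called lower) are among the 6, as are TAP2 and PSMB10, which were not called there. With the start site as the reference, 2 overlapping cores begin at -144 and -138 in B2M and 2 at -20 and -14 in TAPBP. The NF-kB letters were found in HLA-B, TAPBP and PSMB8 and in 4.35% of all windows. These letters do not match the similar runs gggactttcc in TAP1 and gggaaagtccc in B2M, which stay in lower case above. TGACG was found in 6 members and in 24.6% of all windows, and CCAAT in 5 members and in 34.6%. The STAT element TTCNNNGAA was found in the second windows of TAP1 and PSMB8, and in 7.66% of all windows. HLA-B and HLA-C windows were 88.5% identical (269 of 304 aligned positions). At the place of the NF-kB match at -176 in HLA-B (GGGATTCCC), HLA-C reads GGGATTCTC, which falls outside the searched letters GGGANTNCC. TAP1 and PSMB9 are transcribed away from each other from start sites 488 bp apart, and their windows share 13 bases.

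Reads counted on genes ranged from 20604377 to 37550457 per library. Between 8.22% and 15.7% of them came from RN7SL1 and RN7SL2, the small RNAs of the signal recognition particle. Levels are in CPM, the reads of a gene relative to the scaled total of its library. The lncRNA itself lay between 1.07 and 1.58 CPM in the 4 controls and between 11.8 and 24.5 CPM in the 4 libraries labelled pLOC-MALINC1. All 8 epithelial markers were in the table, and their summed level was 18832 to 26086 CPM in MCF10A and 4237 to 4452 CPM in DCIS.COM. With pLOC-empty, the means of KRT17 and KRT5 were 9985 and 6150 CPM in MCF10A and 970 and 1069 CPM in DCIS.COM. Those of EPCAM (62.3 to 280 CPM), KRT18 (505 to 1587.5 CPM) and TP63 (4.99 to 56.7 CPM) were higher in DCIS.COM. Between these groups 3 of the 8 were called higher in DCIS.COM and 5 lower, against 37.9% and 36.0% of all genes. Of 12 leukocyte markers 3 were in the table (CD14, CD68 and NCAM1, summing to 13.2 to 32.6 CPM), and PTPRC, CD3E and MS4A1 were not. Of 9 fibroblast and endothelial markers 2 were in the table (COL1A1 and PECAM1), at 1.83 to 17.0 CPM in sum. With MALINC1 7 epithelial markers were called higher in MCF10A (21.5% of all genes were), and in DCIS.COM 2 were called higher and 2 lower (16.4% and 16.7% of all genes). Of the leukocyte markers 2 were called higher in DCIS.COM, and 1 marker of the fibroblast and endothelial list was called lower in each line. The part of such shifts in the results was not tested. In bulk libraries fewer cells with a transcript and less of it per cell cannot be told apart. Genes were called at an adjusted p below 0.01 (limma, Benjamini-Hochberg over all 13842 genes) and termed DEGs when the fold also passed 2. Every share of all genes refers to these thresholds. Counts at an unadjusted p under 0.05 (limma) have no such share beside them, since it was not computed.

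Per length, the light chain led in all groups. B2M had 379 CPM per kb of its canonical transcript in MCF10A with pLOC-empty (SD 1.33, n = 2) and 655 in DCIS.COM with pLOC-empty (SD 9.83, n = 2). HLA-C followed at 94.8 to 102 CPM per kb over the 4 group means. HLA-B changed its place in the order, with 8.11 CPM per kb in MCF10A (SD 0.990, n = 2, pLOC-empty), close to TAP1 at 8.55 (SD 0.120, n = 2), and with 80.9 in DCIS.COM (SD 2.38, n = 2, pLOC-empty), where only B2M and HLA-C were above it. PSMB9 was the lowest member in each group, at 0.382 to 7.19 CPM per kb. In MCF10A with pLOC-empty, TAP2 (11.7), PSMB10 (13.6, SD 1.52) and PSMB8 (15.3, SD 0.432) lay next to each other, and the order of PSMB10 and its neighbours was within about the spread of its 2 libraries.

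**Figure D1:**
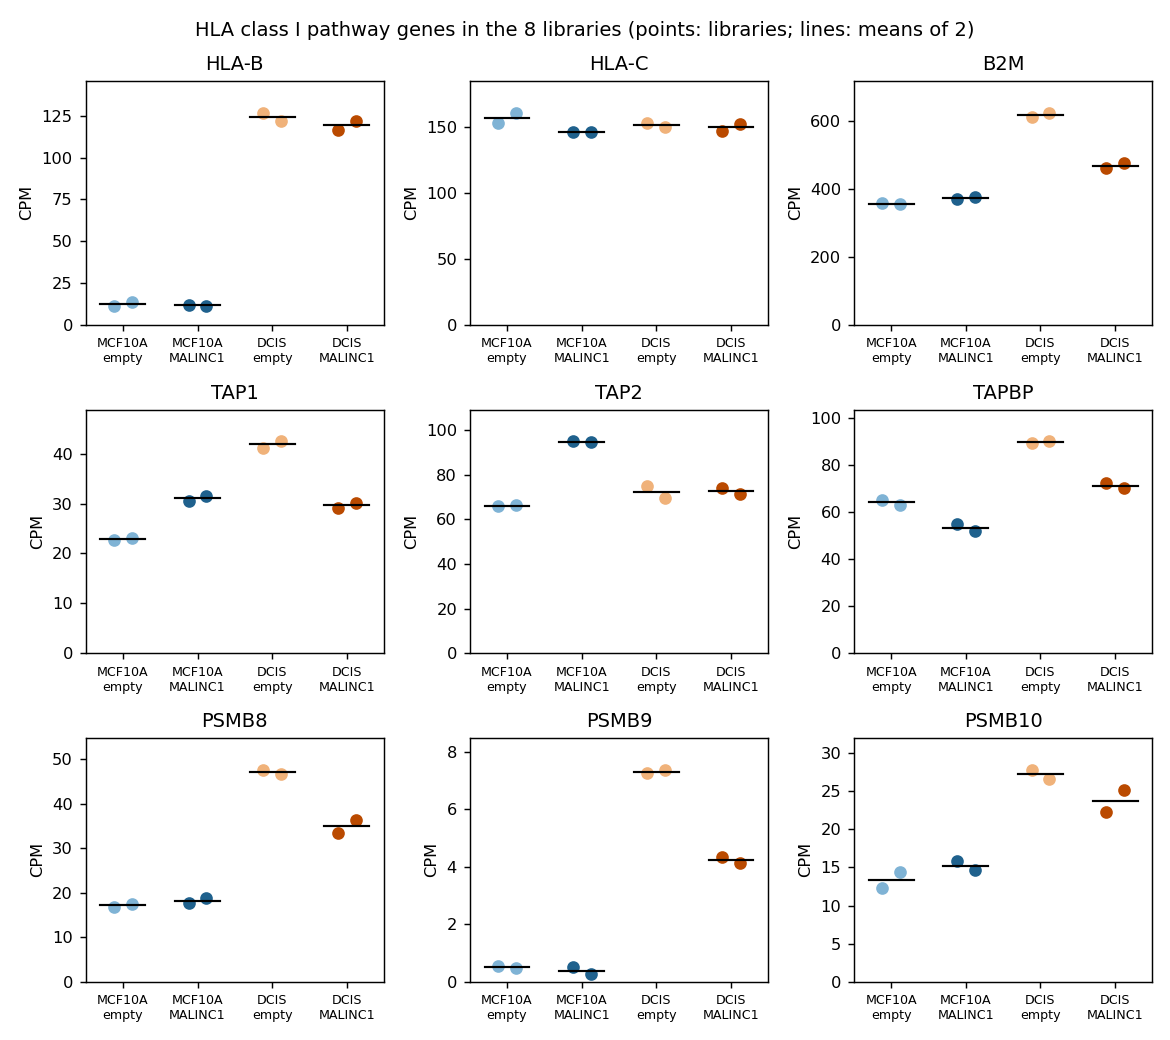
Level in CPM of each of the 9 genes in each of the 8 libraries, on linear axes from 0, with 1 panel per gene; points are libraries, black lines are the means of 2 libraries, and DCIS stands for DCIS.COM. HLA-B and PSMB9 are near the bottom of their axes in MCF10A only, HLA-C stays between 146 and 160.5 CPM, and B2M, TAP1, TAPBP and PSMB8 step down from pLOC-empty to pLOC-MALINC1 in DCIS.COM.

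Heavy chains showed no called change with MALINC1, and a 10.0-fold gap between the lines for HLA-B. It stood at 11.4 and 13.5 CPM in MCF10A with pLOC-empty and at 11.8 and 11.4 CPM with pLOC-MALINC1. In DCIS.COM it stood at 127 and 122 CPM with pLOC-empty and at 117 and 122 CPM with pLOC-MALINC1. All DCIS.COM libraries were thus above all MCF10A libraries, while the vectors overlapped within each line. Between the lines with pLOC-empty the log2 fold change of HLA-B was 3.32 (SE 0.070, adjusted p = 3.42e-13, limma), and with pLOC-MALINC1 it was 3.36 (SE 0.070, adjusted p = 3.69e-13, limma). The MALINC1 effect on HLA-B was -0.097 in MCF10A (95% interval -0.25 to 0.056, adjusted p = 0.267, limma) and -0.059 in DCIS.COM (95% interval -0.21 to 0.094, adjusted p = 0.522, limma).

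HLA-C, the neighbouring heavy chain gene, kept to a narrow range. It was at 153 and 160.5 CPM in MCF10A with pLOC-empty, at 146 and 146 CPM with pLOC-MALINC1, at 153 and 149.9 CPM in DCIS.COM with pLOC-empty and at 147 and 152 CPM with pLOC-MALINC1. Both MCF10A libraries with pLOC-MALINC1 lay just under all others, both DCIS.COM libraries with pLOC-MALINC1 lay under those of MCF10A with pLOC-empty, and the remaining pairs of groups overlapped. The difference between the lines with pLOC-empty was -0.048 on the log2 scale (SE 0.036, adjusted p = 0.233, limma). Its log2 fold change with MALINC1 was -0.099 in MCF10A (SE 0.036, adjusted p = 0.0351, limma) and -0.019 in DCIS.COM (SE 0.036, adjusted p = 0.702, limma). As reads, HLA-B amounted to 0.0741 to 0.0839 of HLA-C over the 4 MCF10A libraries and to 0.795 to 0.829 over the 4 of DCIS.COM. The longest run of bases that annotated coding transcripts of the pair share is 66 nt, against reads of 76 nt. The alleles that the lines carry can differ from the reference, and the part of mapping in these levels was not tested.

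B2M, the light chain, was higher in DCIS.COM and fell there with MALINC1. It measured 358 and 356 CPM in MCF10A with pLOC-empty and, with pLOC-MALINC1, 370 and 377 CPM. In DCIS.COM it measured 611 and 624 CPM with pLOC-empty against 460.5 and 478 CPM with pLOC-MALINC1. Neither pair of groups overlapped, but the step in MCF10A was small, with a log2 fold change of 0.065 (SE 0.032, adjusted p = 0.102, limma). In DCIS.COM the log2 fold change was -0.40 (SE 0.032, adjusted p = 8.16e-07, limma). Between the lines B2M was higher in DCIS.COM by 0.79 with pLOC-empty and by 0.33 with pLOC-MALINC1 on the log2 scale (SE 0.032 for each, adjusted p = 1.21e-10 and 7.72e-07, limma).

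TAP1 and TAP2, which form 1 transporter, rose together in MCF10A and parted in DCIS.COM. TAP1 went from 22.7 and 23.2 CPM with pLOC-empty to 30.6 and 31.5 CPM with pLOC-MALINC1 in MCF10A. In DCIS.COM it went from 41.2 and 42.5 CPM down to 29.1 and 30.1 CPM. The groups did not overlap in either line, and the directions were opposite. The log2 fold change of TAP1 was 0.44 in MCF10A (SE 0.051, adjusted p = 1.84e-05, limma) and -0.50 in DCIS.COM (SE 0.051, adjusted p = 7.30e-06, limma). With pLOC-empty TAP1 was 1.82-fold higher in DCIS.COM than in MCF10A (log2 fold change 0.87, SE 0.051, adjusted p = 5.49e-09, limma). With pLOC-MALINC1 the lines differed by -0.069 (SE 0.051, adjusted p = 0.229, limma).

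TAP2 had 66.0 and 66.3 CPM in MCF10A with pLOC-empty and, with pLOC-MALINC1, 95.1 and 94.7 CPM. In DCIS.COM it had 75.0 and 69.6 CPM with pLOC-empty and, with pLOC-MALINC1, 74.3 and 71.5 CPM. The 2 vectors were thus clearly apart in MCF10A and interleaved in DCIS.COM. The log2 fold change of TAP2 was 0.52 in MCF10A (SE 0.043, adjusted p = 8.83e-07, limma) and 0.012 in DCIS.COM (95% interval -0.081 to 0.11, adjusted p = 0.839, limma). In reads, TAP1 over TAP2 was 0.343 and 0.349 in MCF10A with pLOC-empty and 0.321 and 0.333 with pLOC-MALINC1. The ratio was 0.549 and 0.610 in DCIS.COM with pLOC-empty and 0.392 and 0.420 with pLOC-MALINC1. Between the lines TAP2 was not called with pLOC-empty (0.13, SE 0.043, adjusted p = 0.0156, limma), while it was lower in DCIS.COM with pLOC-MALINC1 (-0.38, SE 0.043, adjusted p = 3.44e-06, limma). The first of these was called with quantile normalization, with scaling without RN7SL1 and RN7SL2 and with equal medians, and also without replicate 2 of DCIS.COM with pLOC-empty (0.18, adjusted p = 0.00401, limma).

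TAPBP, tapasin, fell in both lines. Its levels were 65.3 and 63.0 CPM in MCF10A with pLOC-empty and, with pLOC-MALINC1, 54.9 and 51.9 CPM. They were 89.3 and 90.2 CPM in DCIS.COM with pLOC-empty and, with pLOC-MALINC1, 72.4 and 70.2 CPM. In each line both pLOC-MALINC1 libraries lay under both controls. The log2 fold change was -0.27 in MCF10A (SE 0.042, adjusted p = 0.000213, limma) and -0.33 in DCIS.COM (SE 0.042, adjusted p = 4.22e-05, limma), and the difference between these effects was -0.067 (95% interval -0.20 to 0.063, adjusted p = 0.374, limma). With the MCF10A groups fitted alone, the adjusted p of TAPBP was 0.0124.

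PSMB8, the inducible chymotrypsin-like subunit, was 2.75-fold higher in DCIS.COM with pLOC-empty and fell there with MALINC1. It was at 16.8 and 17.5 CPM in MCF10A with pLOC-empty and at 17.6 and 18.8 CPM with pLOC-MALINC1. In DCIS.COM it was at 47.6 and 46.7 CPM with pLOC-empty and at 33.4 and 36.3 CPM with pLOC-MALINC1. Each DCIS.COM library with pLOC-MALINC1 was under its controls and still above all MCF10A libraries. The log2 fold change with MALINC1 was -0.44 in DCIS.COM (SE 0.062, adjusted p = 0.000108, limma) and 0.085 in MCF10A (SE 0.062, adjusted p = 0.270, limma). With pLOC-empty the lines differed by 1.46 (SE 0.062, adjusted p = 2.13e-10, limma), and with pLOC-MALINC1 by 0.94 (SE 0.062, adjusted p = 1.88e-08, limma).

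PSMB9, the inducible subunit that replaces the constitutive PSMB6, was nearly silent in MCF10A. Its libraries held 14 and 9 reads with pLOC-empty (0.554 and 0.470 CPM) and 16 and 5 reads with pLOC-MALINC1 (0.517 and 0.260 CPM). In DCIS.COM they held 154 and 153 reads with pLOC-empty (7.25 and 7.38 CPM) and 146 and 137 reads with pLOC-MALINC1 (4.32 and 4.12 CPM). The lines were far apart, and in DCIS.COM the 2 vectors did not overlap. Between the lines with pLOC-empty the log2 fold change of PSMB9 was 3.84 (14.3-fold, SE 0.27, adjusted p = 3.50e-08, limma). With MALINC1 in DCIS.COM it was -0.79 (SE 0.27, adjusted p = 0.0318, limma), which did not pass 0.01. The standard error of PSMB9 was the largest of the 9 members, and it pools the spread of the few MCF10A reads. With the DCIS.COM groups fitted alone the same fold change had an adjusted p of 0.00625, and with voom on the recovered reads -0.80 had 8.0e-05. In MCF10A the value of -0.48 (SE 0.27, adjusted p = 0.164, limma) moved between -0.97 and 0.019 as each library was left out. It was called without replicate 1 of MCF10A with pLOC-MALINC1 (adjusted p = 0.00512, limma), where the lone library of that group held 5 reads.

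PSMB10, the inducible trypsin-like subunit, lies outside the complex on chromosome 16. It measured 12.3 and 14.4 CPM in MCF10A with pLOC-empty, against 15.8 and 14.7 CPM with pLOC-MALINC1, 27.8 and 26.6 CPM in DCIS.COM with pLOC-empty and, with pLOC-MALINC1, 22.2 and 25.2 CPM. The lines were apart, and with MALINC1 the levels lay slightly above the controls in MCF10A and slightly under them in DCIS.COM. The log2 fold change was 0.20 in MCF10A (SE 0.089, adjusted p = 0.0819, limma) and -0.20 in DCIS.COM (SE 0.089, adjusted p = 0.0853, limma). The first came to 0.083 without replicate 1 and 0.31 without replicate 2 of MCF10A with pLOC-empty, and the second to -0.11 without replicate 1 and -0.29 without replicate 2 of DCIS.COM with pLOC-MALINC1, none of them called. Between the lines it was 1.03 with pLOC-empty (SE 0.089, adjusted p = 2.27e-07, limma) and 0.64 with pLOC-MALINC1 (SE 0.089, adjusted p = 2.46e-05, limma).

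Against its constitutive counterpart each inducible subunit was a minor form by reads. PSMB8 over PSMB5 was 0.127 and 0.131 in MCF10A with pLOC-empty and 0.120 and 0.127 with pLOC-MALINC1. It was 0.336 and 0.346 in DCIS.COM with pLOC-empty and 0.264 and 0.290 with pLOC-MALINC1. PSMB9 over PSMB6 was between 0.00193 and 0.00524 in MCF10A, 0.0660 and 0.0690 in DCIS.COM with pLOC-empty, and 0.0423 and 0.0401 with pLOC-MALINC1. These first 2 ratios were lower in each DCIS.COM library with MALINC1 than in its controls. PSMB10 over PSMB7 was 0.180 and 0.205, then 0.192 and 0.174 in MCF10A, and 0.374 and 0.374, then 0.336 and 0.381 in DCIS.COM, so that the vectors overlapped in both lines. The canonical transcripts of each pair are of like length (1124 and 1044 nt, 1017 and 824 nt, 977 and 984 nt). The ratios are a description and were not tested.

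**Figure D2:**
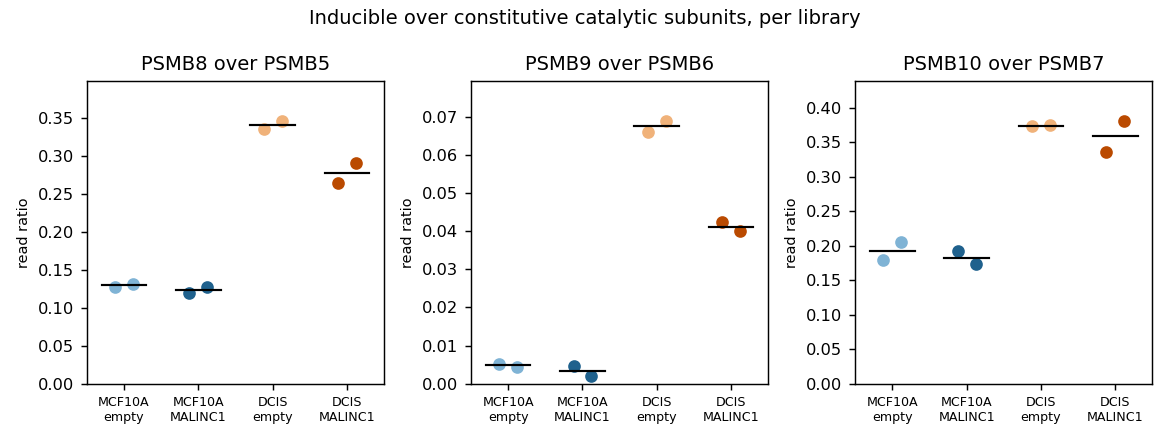
Reads of each inducible catalytic subunit over reads of the constitutive subunit that it replaces, per library (points) with the mean of 2 (black lines); each vertical axis is a linear read ratio from 0, and DCIS stands for DCIS.COM. The ratios of PSMB8 and PSMB9 drop from 0.341 to 0.277 and from 0.0675 to 0.0412 on average in DCIS.COM with MALINC1, while those of PSMB10 overlap.

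Counted over the 9 members, MALINC1 went with 2 higher and 1 lower in MCF10A, against 21.5% of all genes called higher and 18.1% called lower there. In DCIS.COM 0 members were called higher and 4 lower (B2M, TAP1, TAPBP and PSMB8), against 16.4% and 16.7% of all genes. At an unadjusted p under 0.05 (limma), 0 members were higher and 6 lower in DCIS.COM, and the share of all genes at that threshold was not computed. The median log2 fold change of the members was 0.065 in MCF10A, where that of all genes was 0, and -0.33 in DCIS.COM, where that of all genes was 0.0089. No member was a DEG with MALINC1 in either line, in which 5.50% and 4.53% of all genes were. With quantile normalization and with scaling without RN7SL1 and RN7SL2, HLA-C was also called lower in MCF10A (adjusted p = 0.00472 and 0.00491, limma), which gives 2 members higher and 2 lower.

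**Figure D3:**
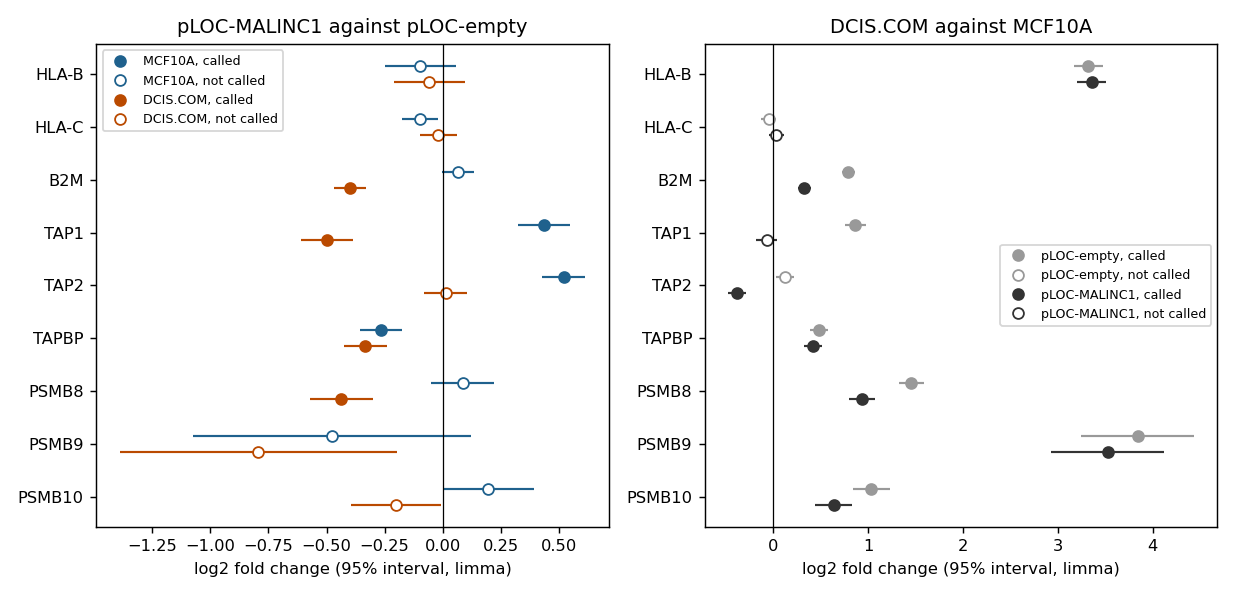
Log2 fold change of each member with its 95% interval (limma), for pLOC-MALINC1 against pLOC-empty in each line (left) and for DCIS.COM against MCF10A with each vector (right); filled points have an adjusted p below 0.01 and open points do not. TAP1 lies at 0.44 in MCF10A and -0.50 in DCIS.COM, TAPBP lies under 0 in both, and HLA-B and PSMB9 stand more than 3 log2 units higher in DCIS.COM.

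The effects themselves were compared between the lines, with the DCIS.COM value minus that of MCF10A. Lower in DCIS.COM were TAP1 (-0.93, SE 0.072, adjusted p = 5.73e-07, limma), PSMB8 (-0.52, SE 0.088, adjusted p = 0.000374, limma), TAP2 (-0.51, SE 0.061, adjusted p = 2.44e-05, limma) and B2M (-0.46, SE 0.045, adjusted p = 4.01e-06, limma). The 4 called members compare with 20.3% of all genes called lower in this difference, and 15.6% were called higher, among them no member (0 also at an unadjusted p under 0.05, limma). PSMB10 differed by -0.40 (SE 0.13, adjusted p = 0.0202, limma), which voom on the recovered reads called (adjusted p = 0.0080) and which was also called without replicate 2 of MCF10A with pLOC-empty (-0.51, adjusted p = 0.00744, limma). PSMB9 differed by -0.32 (SE 0.39, adjusted p = 0.523, limma), HLA-B by 0.038 (adjusted p = 0.777, limma) and HLA-C by 0.080 (adjusted p = 0.212, limma). The median difference of the members was -0.40, beside -0.0071 for all genes.

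Between the lines with pLOC-empty, 7 members were higher in DCIS.COM and 0 lower, against 37.9% and 36.0% of all genes (8 and 0 at an unadjusted p under 0.05, limma). Those with DEG status were HLA-B, PSMB9, PSMB8 and PSMB10, and 28.6% of all genes had it. With pLOC-MALINC1 6 members were higher and 1, TAP2, lower, against 35.7% and 37.2% of all genes, and the 2 DEGs were HLA-B and PSMB9, against 26.6%. TAP1 was thus higher in DCIS.COM with pLOC-empty and not called with pLOC-MALINC1. TAPBP was higher by 0.48 and 0.42 on the log2 scale (SE 0.042 for each, adjusted p = 2.54e-07 and 1.20e-06, limma). The median over the members was 0.87 with pLOC-empty and 0.42 with pLOC-MALINC1, beside 0.031 and 0.0055 for all genes. These comparisons and those with MALINC1 share libraries.

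Of 16 measured regulators of the pathway, 3 fell in MCF10A and 0 rose (2 at an unadjusted p under 0.05, limma), against 18.1% of all genes called lower and 21.5% called higher. Those that fell were NFYB (-0.67, SE 0.071), a subunit of the factor that binds the Y box, STAT2 (-0.44, SE 0.063), which transmits type I interferon signals, and EZH2 (-0.32, SE 0.044), a histone methyltransferase. In DCIS.COM 2 rose and 3 fell, against 16.4% and 16.7% of all genes. IRF9, a DNA-binding partner of STAT2, went from 7.81 and 8.71 CPM to 4.56 and 4.03 CPM (-0.94, SE 0.12, adjusted p = 4.83e-05, limma). IRF1, which binds interferon response elements, went from 16.301 and 17.5 CPM to 13.4 and 11.95 CPM (-0.42, SE 0.091, adjusted p = 0.00257, limma). RFX5, which binds the X box of class I promoters, went from 64.6 and 69.4 CPM to 48.5 and 51.3 CPM (-0.42, SE 0.053, adjusted p = 3.93e-05, limma). All 3 were lower in both DCIS.COM libraries with MALINC1 than in both controls. EZH2, which fell in MCF10A, went the other way in DCIS.COM, from 38.2 and 37.1 CPM to 43.4 and 43.2 CPM.

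NLRC5, the transactivator of class I genes, did not pass the test with MALINC1. It was at 7.002 and 7.023 CPM in MCF10A with pLOC-empty, at 5.59 and 6.87 CPM with pLOC-MALINC1, at 8.42 and 7.38 CPM in DCIS.COM with pLOC-empty and at 9.36 and 10.5 CPM with pLOC-MALINC1. Its log2 fold change was -0.18 in MCF10A (SE 0.12, adjusted p = 0.248, limma) and 0.33 in DCIS.COM (SE 0.12, adjusted p = 0.0464, limma). Among factors of the motifs above, CREB1 was higher in DCIS.COM with MALINC1 (0.18, SE 0.048, adjusted p = 0.00802, limma). RELA had 0.17 there (SE 0.058, adjusted p = 0.0292, limma) and NFKB1 -0.052 (SE 0.038, adjusted p = 0.262, limma), neither of them called. ATF1 was at 0.050 in MCF10A and at 0.00 in DCIS.COM, and NFYA and NFYC were called in neither line. Between the lines with pLOC-empty, 4 of the 16 regulators were called higher in DCIS.COM and 6 lower, against 37.9% and 36.0% of all genes. RFX5 was higher there by 1.57 (SE 0.053), IRF1 by 0.72 (SE 0.091) and NFYA by 0.33 (SE 0.063), while NLRC5 was not called (0.17, SE 0.12). The mean of IRF2 was 9.13 CPM in MCF10A and 20.7 CPM in DCIS.COM, both with pLOC-empty. Mean levels went the other way, from MCF10A to DCIS.COM, for NFYB (52.5 to 25.6 CPM), CREB1 (58.0 to 34.6 CPM), STAT2 (43.6 to 25.2 CPM) and RELA (33.7 to 25.9 CPM).

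Interferon receptors and their kinases and inhibitors held a pair of genes that moved in opposite directions in the lines. IFNGR2, the signaling chain of the interferon gamma receptor, rose from 26.5 and 26.9 CPM to 50.3 and 53.0 CPM in MCF10A (0.95, SE 0.045) and fell from 83.5 and 81.3 CPM to 51.5 and 50.1 CPM in DCIS.COM (-0.70, SE 0.045). SOCS3, a feedback inhibitor of JAK kinases, rose from 2.17 and 2.20 CPM to 4.47 and 3.92 CPM in MCF10A (0.94, SE 0.17) and fell from 4.50 and 3.60 CPM to 1.29 and 1.14 CPM in DCIS.COM (-1.73, SE 0.17). The difference between the lines was -1.65 for IFNGR2 (adjusted p = 9.45e-10, limma) and -2.67 for SOCS3 (adjusted p = 2.32e-06, limma). In all 2 of 11 genes rose and 3 fell in MCF10A (21.5% and 18.1% of all genes), with the kinase TYK2 (-0.29, SE 0.045) as the largest fall, and 5 fell and 0 rose in DCIS.COM (1 at an unadjusted p under 0.05, limma, against 16.7% of all genes called lower and 16.4% higher), where IFNAR2, a chain of the type I receptor, fell by 0.48 on the log2 scale.

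Constitutive catalytic subunits, proteasome activators and the assembly factor POMP were counted as 1 list of 8 genes. In MCF10A 5 rose and 0 fell (1 at an unadjusted p under 0.05, limma), against 21.5% and 18.1% of all genes, with PSME3 (0.39, SE 0.040), PSMB7 (0.27, SE 0.039) and POMP (0.24, SE 0.037) as the largest. In DCIS.COM 1 rose, PSME3 (0.31, SE 0.040), and 5 fell, with PSME1 (-0.38, SE 0.049) and PSME4 (-0.26, SE 0.043) among them, against 16.4% and 16.7% of all genes. PSME1 and PSME2 encode the activator PA28 that interferon gamma induces, while PSME3 encodes a nuclear activator. The list medians were 0.19 and -0.16, beside 0 and 0.0089 for all genes.

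Chaperones and editors that act with tapasin were called in MCF10A, where 2 of 5 rose and 2 fell, against 21.5% and 18.1% of all genes, with HSPA5, the major chaperone of the endoplasmic reticulum, at 0.69 (SE 0.032), TAPBPL, a tapasin-related peptide editor, at -0.66 (SE 0.18) and CALR, calreticulin, at -0.28 (SE 0.033). In DCIS.COM 0 of 5 were called in either direction (1 higher and 1 lower at an unadjusted p under 0.05, limma), against 16.4% higher and 16.7% lower of all genes, with values from -0.24 to 0.11. The test of the difference was passed by HSPA5 (-0.76, SE 0.046) and CALR (0.27, SE 0.047). Peptidases that trim or destroy peptides were called in both directions, 3 higher and 2 lower of 9 in MCF10A (21.5% and 18.1% of all genes) and 2 higher and 2 lower in DCIS.COM (16.4% and 16.7% of all genes). ERAP1, which trims peptides in the endoplasmic reticulum, rose in DCIS.COM (0.23, SE 0.059), and NPEPPS (-0.27, SE 0.048) and NRDC (-0.23, SE 0.036) fell. BLMH fell in MCF10A (-0.49, SE 0.056), where TPP2 (0.26, SE 0.041) and THOP1 (0.22, SE 0.041) rose.

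Non-classical class I genes and ligands of the receptor NKG2D, which natural killer cells carry, were called higher or not called in MCF10A and called in both directions in DCIS.COM. In MCF10A 7 of 14 rose and 0 fell (0 also at an unadjusted p under 0.05, limma), with 3 DEGs, against 21.5% higher, 18.1% lower and 5.50% DEGs among all genes. RAET1L went from 0.761 and 0.868 CPM to 2.89 and 2.53 CPM (1.73, SE 0.21), RAET1G rose by 1.36 (SE 0.27), RAET1E by 1.12 (SE 0.19) and ULBP2 by 0.62 (SE 0.12). In DCIS.COM 2 rose and 5 fell, with 2 DEGs, against 16.4%, 16.7% and 4.53% of all genes. RAET1L rose there too, from 1.38 and 1.03 CPM to 2.20 and 2.47 CPM (0.97, SE 0.21), while MICB went from 3.62 and 3.17 CPM to 1.41 and 1.25 CPM (-1.35, SE 0.14). FCGRT, the neonatal Fc receptor, went from 1.19 and 1.93 CPM to 0.566 and 0.396 CPM (-1.68, SE 0.32). The difference between the lines passed the test for MICB (-1.55, adjusted p = 3.30e-05, limma), RAET1E (-1.01, adjusted p = 0.00830, limma) and FCGRT (-1.79, adjusted p = 0.00544, limma). RAET1G was chosen for mention after its value was seen, as the third of these 3 DEGs.

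**Figure D4:**
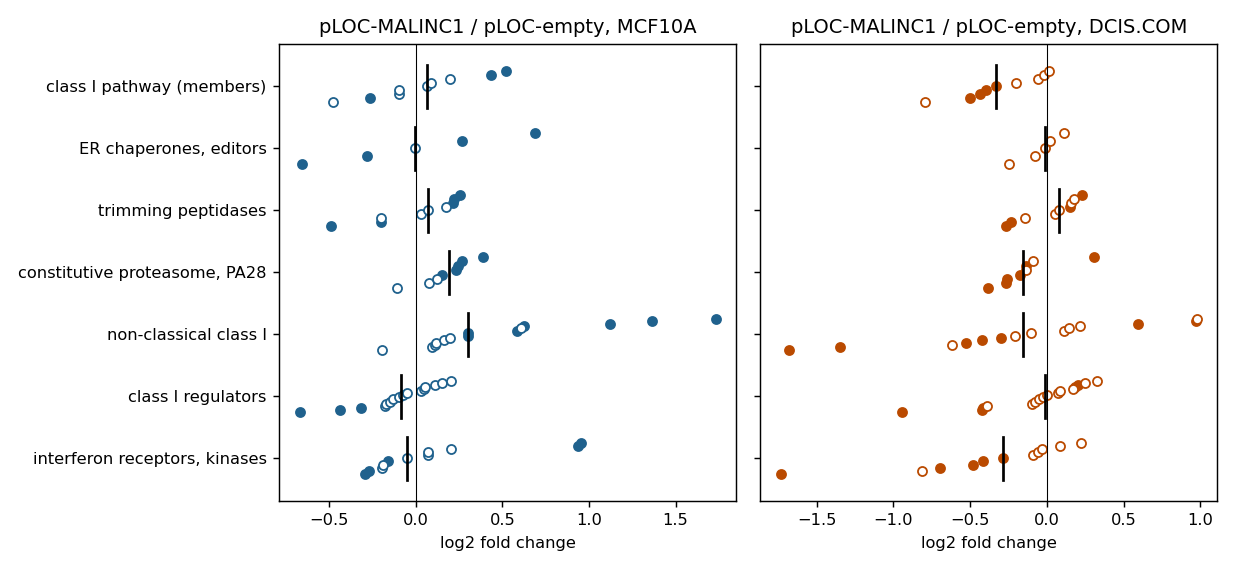
Log2 fold change with MALINC1 of every measured gene of the 9 members and of 6 related lists, in MCF10A (left) and DCIS.COM (right); each point is a gene, filled where its adjusted p is below 0.01, and the short black bars are list medians. The members' median lies at 0.065 on the left and -0.33 on the right, and the interferon receptor list reaches 0.95 on the left and -1.73 on the right.

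By Pearson r of log2 CPM over the 8 libraries, among 11446 genes at 1 CPM or more in each, the closest to HLA-B was DDOST (0.999), to HLA-C MAN1B1 (0.940), to B2M PFKFB4 (0.998) and to TAP1 NDUFS4 (0.991). For TAP2 it was SNRPD1 (0.992), for TAPBP TNS3 (0.993), for PSMB8 PSMA6 (0.999), for PSMB9 FMNL3 (0.997) and for PSMB10 UNC119 (0.997). No member was among the 3 closest genes of another member. The 8 points share their libraries and fall into 2 cell lines, so that any pair of genes that separates the lines reaches a high r.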

How the data were processed

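RNA from subconfluent MCF10A and DCIS.COM cells was sequenced in pairs of 76 nt reads. The authors mapped these to hg19 (Rsubread) and used featureCounts with UCSC genes. The authors deposited log2 CPM from edgeR, scaled by library factors of 0.945 to 1.11 with a prior count of 2; every gene of the deposited table reaches 0.5 CPM in at least 2 libraries. Versions, strand setting and filter are not given in the sources used here. Whole reads were recovered from these values (100% within 0.01 of a whole number). These deposited values went into limma 3.58.1 under R 4.3.3 (lmFit, eBayes with trend, 4 group means, Benjamini-Hochberg over 13842 genes), called at an adjusted p below 0.01 and termed DEG above 2-fold. Fold changes are on the log2 scale with this prior count, which understates low genes.

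The members and lists were chosen with earlier results of these data known. The genes named were the 9 members, up to 3 called genes per list and line with the largest change at 1 CPM or more, regulators beside their motif, and cell type markers. 1 regulator was left out of its list and is not reported here. Steps were tested on simulated data. Coordinates come from GENCODE on GRCh37, lengths from canonical transcripts and promoters from RefSeq (GRCh38.p14). Alternatives changed the pseudocount, filter, scaling, model, threshold and libraries. Python 3.11.15, pandas 2.3.3, numpy 2.4.6 and matplotlib 3.10.9 were used. Authors' comparisons were not used.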

Additional observations from a re-analysis of the deposited data

Results flagged for a closer look

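4 members stood out because the effect of MALINC1 differed between the lines by the test of the difference itself (limma, adjusted p below 0.01). The log2 fold change in DCIS.COM minus that in MCF10A was -0.93 for TAP1, -0.52 for PSMB8, -0.51 for TAP2 and -0.46 for B2M. For TAP1 the effects had opposite signs and were called in both lines. TAP2 was called in MCF10A, and B2M and PSMB8 in DCIS.COM. The line and its medium cannot be told apart in these differences.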

How the results depend on the processing

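Over single members, 348 values with 1 library left out and 507 under other alternatives kept their direction and side of the threshold, 5 and 16 gained a call, 7 and 7 changed sign, and 0 and 1 lost a call. The number of members lower in MCF10A was 1, and it was 2 with quantile normalization, 2 with scaling without RN7SL1 and RN7SL2, 2 at an adjusted p below 0.05, 0 with the groups fitted alone, and 1 to 2 with a library left out (2 without replicate 1 of MCF10A with pLOC-MALINC1). The cause of these shifts was not tested. The values counted as kept with 1 library left out include comparisons that the library does not enter. There the fold change cannot move, and only the shared spread and the adjusted p can. Fold changes also cannot move with the filter, the replicate block, the groups fitted alone, no trend, the robust fit or the threshold of 0.05. Under these only the call can change. Signs turned among values that were not called. With quantile normalization and with scaling without RN7SL1 and RN7SL2, HLA-C came to 0.0041 and 0.016 with MALINC1 in DCIS.COM and to 0.016 and 0.058 between the lines with pLOC-empty, and TAP1 to 0.030 and 0.11 between the lines with pLOC-MALINC1. TAPBP came to 0.0071 for the difference between the lines under the second of these. That scaling moved the median of all genes from 0.031 to 0.14 and from 0.0055 to 0.18 between the lines. With each library left out, HLA-B with MALINC1 in MCF10A ranged from -0.22 to 0.028, PSMB9 from -0.97 to 0.019, HLA-C in DCIS.COM from -0.045 to 0.0078 and TAP2 there from -0.042 to 0.067, and the difference between the lines ranged from -0.087 to 0.16 for HLA-B and from -0.81 to 0.18 for PSMB9. For the last, the values come from groups with 5 to 16 reads.

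The fall of PSMB9 in DCIS.COM was called with log2(CPM + 1) (-0.68, adjusted p = 0.000198, limma) and log2(CPM + 0.5) (-0.74, adjusted p = 0.00132, limma) and without either MCF10A library with pLOC-MALINC1 (adjusted p = 0.00481 and 0.00413, limma). HLA-C was called higher in DCIS.COM with pLOC-MALINC1 with quantile normalization (0.16) and scaling without RN7SL1 and RN7SL2 (0.21). Fitted alone, the groups gave 3101 called genes in MCF10A, where the common fit gave 5485, and 2559 in DCIS.COM, where it gave 4592, and without the trend DCIS.COM gave 2915. Replicates of the same number did not deviate together (correlations of -0.0666 to 0.0382 over 6 pairs of groups). The fit with a replicate block gave 2 members higher and 1 lower in MCF10A and 0 and 4 in DCIS.COM. It changed no call of a member, and it could not move a fold change, since replicate numbers are balanced over the groups. Each library left out leaves a lone library that is assumed to vary like the other groups. Depth limits PSMB9 in MCF10A most.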
